A study of Mus musculus with 8 samples.

Results

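The 39 Hox genes of the mouse were examined in hair follicle stem cells of back skin. Members were taken by symbol, as every row named Hoxa, Hoxb, Hoxc or Hoxd with a number, and they made up 39 of the 46517 genes in the abundance table. The table holds TPM, a transcript level scaled for length and to the same total in every library, so levels of different genes can be set side by side. There were 8 libraries in 4 groups of 2, and a library is named here by its group and the number in its title. The groups differ in which of Nfib and Nfix the design had Cre delete, a pair of genes for nuclear factor I (NFI) transcription factors.

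All animals were males at postnatal day 70, in the second resting phase of the hair cycle (telogen). WT (libraries 34 and 82) carried homozygous floxed Nfib, Nfix and R26-YFP alleles and no Cre recombinase. NFIB-cKO (81 and 85) carried Sox9-CreER with homozygous floxed Nfib and R26-YFP. NFIX-cKO (32 and 88) carried Sox9-CreER with homozygous floxed Nfix and R26-YFP, and in addition 1 floxed Nfib allele. NFIB/X-dKO (33 and 36) carried Sox9-CreER with both genes and R26-YFP homozygous for the floxed allele. Every group thus shared the floxed YFP reporter, and the Cre was driven by Sox9, a gene of the follicle. Cells were sorted as DAPI negative, Sca-1 negative, integrin α6 positive and CD34 positive. In the knockouts a gate for YFP was added that WT lacked, so this gate and the presence of Cre cannot be told apart from genotype in any comparison with WT.

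Hox genes encode homeodomain transcription factors that give cells along the body axis their positional identity. They lie in 4 clusters, and a gene's place in its cluster, counted as its paralog group, matches the axial level at which it is first expressed in the embryo, with low numbers towards the head and high numbers towards the tail. Adult skin keeps part of this pattern, chiefly known from dermal fibroblasts. Hoxc13 departs from the positional rule, since it is expressed in hair follicles across the body and is needed for a normal hair shaft. NFI factors bind as dimers to a palindrome in which TTGGC and its inverted copy GCCAA flank a short spacer, so that TTGGC is a single arm.

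The sequences below are the 250 bases before the annotated start site of 4 members, from RefSeq on GRCm38.p6, 5′ to 3′ on the gene's strand, with TTGGC and its reverse complement GCCAA in capitals. Hoxa7, Hoxb8 and Hoxd8 were expressed in every library, and Hoxd10 was nearly silent in all of them. They lie at chr6:52218574-52218823 (minus strand), chr11:96281655-96281904, chr2:74704365-74704614 and chr2:74691641-74691890 (plus strand). For Hoxb8, Hoxd8 and Hoxd10 this is upstream of the first exon, while the Hoxa7 window lies inside the longer GENCODE gene model, which runs from 52214491 to 52221854.
Hoxa7: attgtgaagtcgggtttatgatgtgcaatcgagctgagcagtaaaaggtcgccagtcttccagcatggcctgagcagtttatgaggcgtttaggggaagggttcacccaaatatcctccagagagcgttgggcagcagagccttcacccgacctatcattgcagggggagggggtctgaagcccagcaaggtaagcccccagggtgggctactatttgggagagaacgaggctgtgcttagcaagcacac
Hoxb8: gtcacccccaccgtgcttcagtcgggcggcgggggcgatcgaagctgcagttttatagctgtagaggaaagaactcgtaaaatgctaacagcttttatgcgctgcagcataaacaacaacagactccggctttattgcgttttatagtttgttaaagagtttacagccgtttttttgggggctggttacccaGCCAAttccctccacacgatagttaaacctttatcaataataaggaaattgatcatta
Hoxd8: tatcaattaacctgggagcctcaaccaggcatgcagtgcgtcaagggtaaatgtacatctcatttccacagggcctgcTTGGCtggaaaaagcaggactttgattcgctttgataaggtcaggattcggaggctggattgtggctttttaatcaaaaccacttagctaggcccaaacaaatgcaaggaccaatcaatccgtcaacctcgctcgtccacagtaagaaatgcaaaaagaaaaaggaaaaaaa
Hoxd10: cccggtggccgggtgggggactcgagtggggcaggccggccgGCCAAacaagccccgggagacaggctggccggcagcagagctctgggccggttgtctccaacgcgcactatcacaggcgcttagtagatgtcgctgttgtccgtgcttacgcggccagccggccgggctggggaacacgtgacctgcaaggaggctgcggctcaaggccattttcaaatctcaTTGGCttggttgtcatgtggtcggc
A promoter entry was matched for 22 of the 39 members, with 24 start sites in all. The whole palindrome was found in 0 of the 24 on either strand, and in 0.0365% of 32841 promoters of the same length. At least 1 single arm was found in 66.7% of the Hox promoters and in 41.5% of all promoters. The share was 53.8% of the 13 promoters of expressed members and 81.8% of the 11 of members below the expression filter. CpG dinucleotides numbered 12 at the median in the first of these sets, 20.0 in the second and 6.0 over all promoters. A match describes letters in this window and is not a binding site.

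Depth was known for 5 libraries, with expected count totals from 57173266 to 66854625. The whole-gene rows of the targeted genes do not check the labels, since they also count exons outside a deleted part. Nfib stood at 147.91 to 229.56 TPM in WT and NFIX-cKO, 233 to 293 in NFIB-cKO and 377 to 389 in NFIB/X-dKO, and Nfix at 123 to 158 TPM in all 8 libraries. Of 16 bulge stem cell markers all 16 were expressed, with summed TPM from 27500 to 39000, while endothelial markers summed to at most 2.91 and muscle and mural markers to at most 3.73. Among 8 interfollicular epidermis markers, 7 could be matched, and their sum was 2110 to 2670 TPM in WT, 1730 to 1740 in NFIB-cKO, 3560 to 3660 in NFIB/X-dKO, 4230 in NFIX-cKO 32 and 1790 in NFIX-cKO 88. Within WT and NFIX-cKO, libraries numbered in the 80s differed from those in the 30s in many genes. Both NFIB/X-dKO libraries fall in the 30s and both NFIB-cKO libraries in the 80s. The labels do not say what the numbers stand for or whether a library is 1 animal, so p-values measure the spread between these libraries, which may be technical.

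Expression followed the paralog number. The filter for testing asked that 2 or more libraries reach 1 TPM, and it was met by 26 of 39 members. It was met by 25 of the 27 members of paralog groups 1 to 9 and by 1 of the 12 members of groups 10 to 13, which was Hoxc13. The 2 exceptions at the head end were Hoxb1 (0.04 to 0.12 TPM) and Hoxd1 (0.03 to 0.4 TPM), both best known from the embryonic hindbrain and nervous system. This pattern was the same in the 4 groups at the resolution of group means, as the grid of clusters by paralog group shows.

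**Figure D1:**
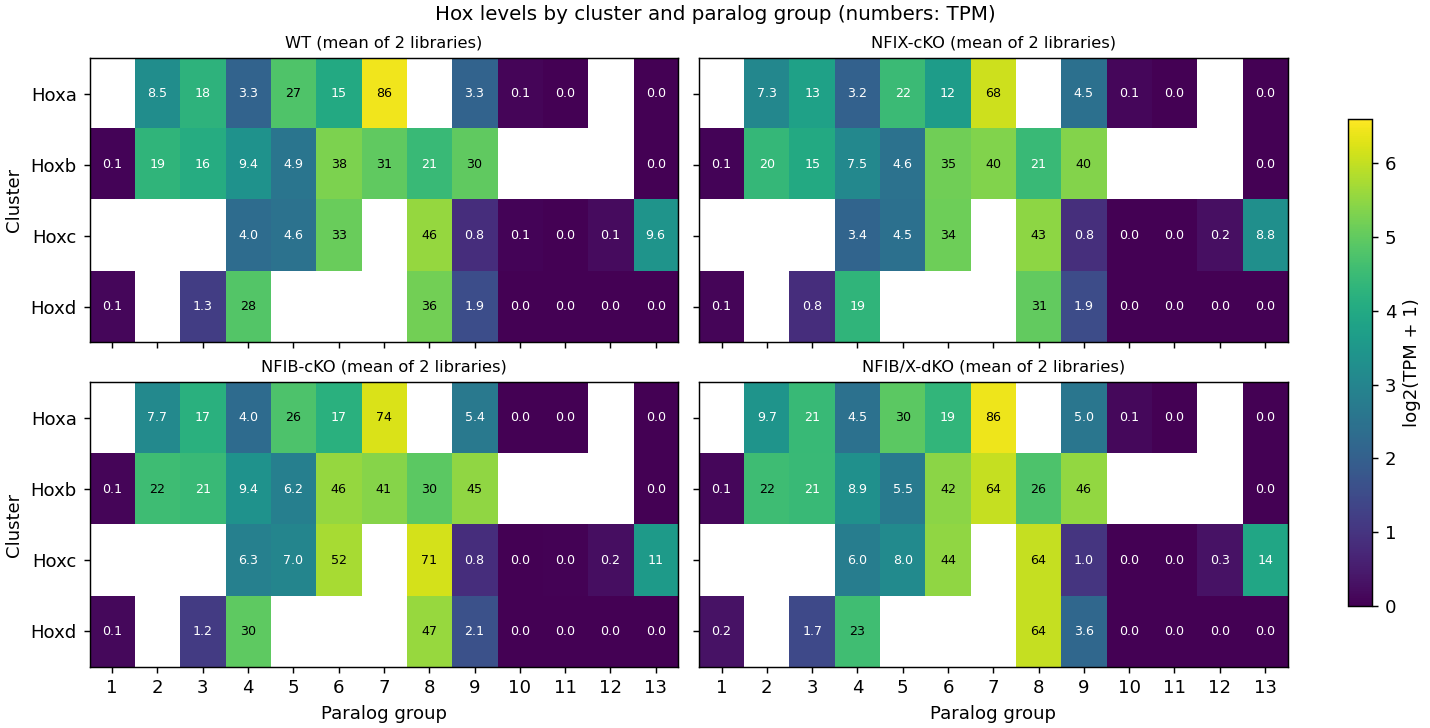
Mean TPM of 2 libraries for each Hox gene, printed in its cell and coloured as log2(TPM + 1), by cluster (rows) and paralog group (columns) in the 4 groups; blank cells have no gene or are not reported here. Groups 10 to 13 are dark in all 4 panels except for Hoxc13, and Hoxa7 is the brightest cell of each panel.

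Together the 39 genes summed to 498 ± 0.594 TPM in WT (SD, n = 2), 462 ± 43.4 in NFIX-cKO, 602 ± 11 in NFIB-cKO and 643 ± 39.2 in NFIB/X-dKO. Both groups with homozygous floxed Nfib and Cre lay above both of the others in every library, with 595 to 670 against 431 to 498. Cluster B gave 34% to 39.8% of the Hox TPM of a library, cluster A 24.3% to 35.1%, cluster C 19.2% to 25.2% and cluster D 9.7% to 15.4%. In bulk RNA a lower level can mean fewer cells that express a gene or less RNA in each, and these cannot be told apart.

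The 8 most abundant members were central genes of paralog groups 5 to 9, which in the embryo are first expressed at cervical to thoracic levels. They were, by mean TPM over 8 libraries, Hoxa7 at 78.4, Hoxc8 at 56.2, Hoxd8 at 44.4, Hoxb7 at 44.0, Hoxc6 at 40.9, Hoxb6 at 40.5, Hoxb9 at 40.3 and Hoxa5 at 26.0. They held 64.5% to 68.9% of the Hox TPM of each library, and 7 of them were among the first 8 in every library. Means of the third to the seventh of these genes differed by less than the range of any of them over the libraries, so their order is not resolved.

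Hoxa7, which patterns thoracic vertebrae, measured 91.64 and 80.9 TPM in WT, 78.48 and 69.8 in NFIB-cKO, 76.29 and 59.03 in NFIX-cKO and 83.81 and 87.21 in NFIB/X-dKO. NFIB-cKO and NFIX-cKO overlapped each other and lay below WT and NFIB/X-dKO, which also overlapped, and Hoxa7 was the highest Hox gene in every library. Hoxa5, known for its role in lung and respiratory development, measured 29.81 and 23.6 TPM in WT, 26.2 and 25.75 in NFIB-cKO, 25.14 and 18.14 in NFIX-cKO and 28.59 and 30.43 in NFIB/X-dKO. WT overlapped all 3 knockout groups, and the lowest library was NFIX-cKO 88.

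Hoxc8, which acts in thoracic vertebrae and in motor neurons of the limb level, measured 44.42 and 48.34 TPM in WT, 72.5 and 69.21 in NFIB-cKO, 43.91 and 42.76 in NFIX-cKO and 62.25 and 66.3 in NFIB/X-dKO. Hoxc6, its neighbour in the cluster, measured 31.6 and 34.71 TPM in WT, 52.37 and 51.65 in NFIB-cKO, 37.08 and 31.61 in NFIX-cKO and 41.35 and 47.0 in NFIB/X-dKO. Hoxd8, the cluster D paralog of Hoxc8, measured 35.69 and 35.66 TPM in WT, 40.93 and 52.4 in NFIB-cKO, 29.8 and 32.48 in NFIX-cKO and 56.22 and 72.24 in NFIB/X-dKO. For these 3 genes the NFIB-cKO and NFIB/X-dKO libraries all lay above the WT and NFIX-cKO libraries, without overlap. The same held for 6.84% of all genes fitted.

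Within cluster B, Hoxb6 measured 38.23 and 38.06 TPM in WT, 45.18 and 47.11 in NFIB-cKO, 35.25 and 34.98 in NFIX-cKO and 38.84 and 46.15 in NFIB/X-dKO. Hoxb7 measured 34.08 and 27.79 TPM in WT, 46.53 and 36.33 in NFIB-cKO, 48.8 and 31.02 in NFIX-cKO and 64.12 and 63.58 in NFIB/X-dKO. Hoxb9, the last member of the cluster to be expressed here, measured 29.01 and 31.99 TPM in WT, 37.56 and 51.62 in NFIB-cKO, 34.93 and 46.06 in NFIX-cKO and 48.49 and 42.49 in NFIB/X-dKO. Hoxb6 was higher in both Nfib-floxed Cre groups than in the others, Hoxb7 was highest in NFIB/X-dKO and higher in NFIB-cKO than in WT, with NFIX-cKO overlapping both of these, and Hoxb9 was lowest in WT with the 3 knockout groups overlapping each other.

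**Figure D2:**
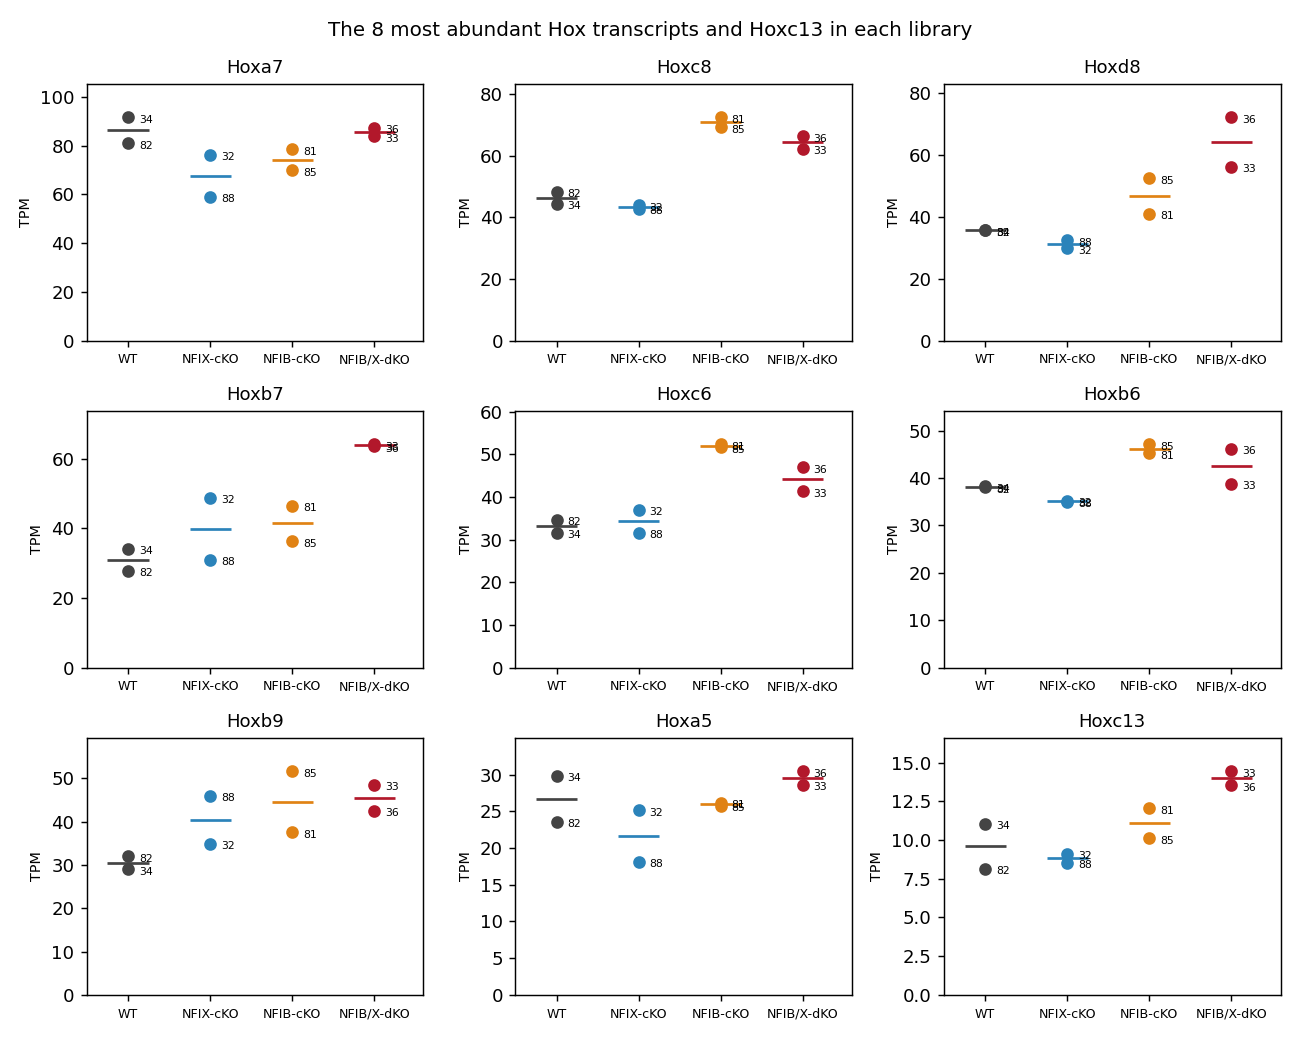
TPM (vertical axes, from 0) of the 8 most abundant Hox genes and of Hoxc13 in each library, with groups along the horizontal axes, points labelled by library number and lines at the group means. Hoxc8 lies at 62.25 TPM or more in NFIB-cKO and NFIB/X-dKO and at 48.34 or less in WT and NFIX-cKO, while Hoxa7 spans 59.03 to 91.64 TPM, with NFIB-cKO and NFIX-cKO below the other 2 groups.

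The other fitted members were lower, and the head end was uneven between clusters. In cluster A, Hoxa2 (6.31 to 10.37 TPM), which patterns the hindbrain and the second pharyngeal arch, was followed by Hoxa3 (10.03 to 22.94), needed for thymus and parathyroid. Hoxa4 (2.86 to 4.53 TPM) stood between the higher Hoxa3 and Hoxa5, and Hoxa6 ran from 9.37 to 20.68. Hoxa9 (3.21 to 5.89 TPM), known from blood progenitors and leukaemia, was low although it lies beside Hoxa7 in the cluster, as there is no Hoxa8. Among the cluster B genes, Hoxb2 (15.85 to 24.95 TPM), Hoxb3 (12.69 to 23.38) and Hoxb8 (19.25 to 33.6) were higher than Hoxb4 (6.66 to 10.32) and Hoxb5 (3.76 to 7.52). Hoxb8 is known for the compulsive grooming and hair removal of mice that lack it.

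In cluster C, Hoxc4 (2.81 to 7.34 TPM) and Hoxc5 (3.19 to 9.25) were about as low as each other. In cluster D, Hoxd4 was listed at 15.96 to 36.73 TPM and Hoxd3 at 0.48 to 1.9, and Hoxd9 ran from 1.47 to 4.05. Several of these rows share exon bases in the annotation, and whether counting used strand is not stated, so reads of such partners cannot be told apart. Hoxb3os covers 52.9% of the exon bases of Hoxb3 and 27.3% of those of Hoxb2 on the opposite strand. Hoxaas3 covers 20.4% of those of Hoxa7, and Hoxd3 and Hoxd4 share 388 bases on the same strand. Gm28230 covers 53.1% of the exon bases of Hoxd3 and 39.1% of those of Hoxd4, also on the same strand, so the difference between these 2 rows is uncertain.

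The 13 members below the filter were Hoxb1, Hoxd1 and 11 members of groups 10 to 13, and their highest value was 0.4 TPM, for Hoxd1 in NFIB/X-dKO 36. Hoxa11 and Hoxa13 were at 0 in all 8 libraries. In the 5 libraries with counts, a count of 0 allows up to 3 counts, which is 0.0273 to 0.0844 TPM depending on the member and library and covers counting error only. Hoxa10 (0.01 to 0.13 TPM), Hoxb13 (0.0 to 0.03) and Hoxd10 to Hoxd13 (each at most 0.01) belong to the genes that pattern the lumbar and tail regions, the urogenital tract and the distal limb. No count above 28 was seen for any of the 13, against 52.5 to 5721 for the fitted members. With 2 libraries in a group, these floors limit what could be seen of a small change at the tail end of the clusters.

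Hoxc13 was the single expressed gene of the tail end. It measured 11.06 and 8.16 TPM in WT, 12.06 and 10.11 in NFIB-cKO, 9.1 and 8.54 in NFIX-cKO and 14.43 and 13.53 in NFIB/X-dKO. Both NFIB/X-dKO libraries were above the 6 others, and WT overlapped both single knockouts. The gene lies at chr15:102921103-102928814 on the plus strand, at the 5′ end of the cluster, and the starts of Hoxc12, Hoxc11 and Hoxc10 follow at 15.7, 33.3 and 45.7 kb. These 3 were at 0.06 to 0.31, 0.0 to 0.04 and 0.0 to 0.1 TPM, and Hoxc9, at 55.3 kb, was at 0.67 to 1.06 TPM. The annotated start of Hoxc5, at 46.3 kb, lies beside that of Hoxc10, with which its row shares 166 exon bases on the same strand. By paralog number Hoxc13 thus stood apart from Hoxc8, Hoxc6, Hoxc5 and Hoxc4 by 4 members that were silent or barely expressed, in every library.

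**Figure D3:**
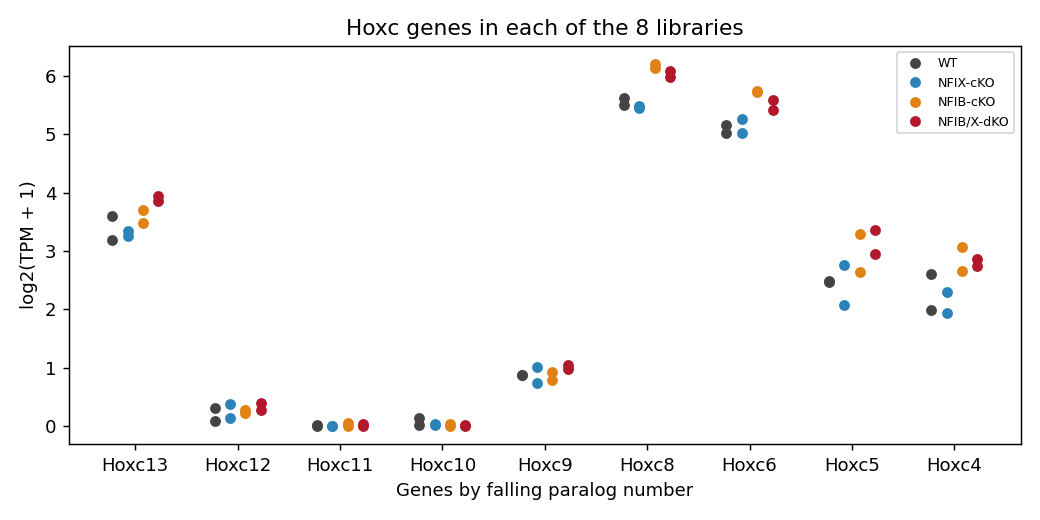
Level of the 9 Hoxc genes as log2(TPM + 1) (vertical axis) by falling paralog number (horizontal axis), with 1 point for each of the 8 libraries, coloured by group. Hoxc13 (8.16 to 14.43 TPM) is separated from Hoxc8 (42.76 to 72.5 TPM) by Hoxc12, Hoxc11, Hoxc10 and Hoxc9, all at 1.06 TPM or less.

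Hair shaft keratins, among them direct targets of Hoxc13 known from the hair matrix, were largely absent. Of 12 that could be matched, 11 were under 1 TPM in every library, and only Krt32 was expressed, at 6.89 to 16.02 TPM. Krt32 had a difference of -0.64 ± 0.29 in NFIB/X-dKO against WT (limma adjusted p = 0.317). Regulators of the hair shaft formed a separate list, of which 11 of 13 genes met the filter, Msx2 and Dlx3 among them. By limma 0 of the 11 passed between genotypes, with 0 to 4 at an unadjusted p under 0.05, where all genes gave 6.81% to 17.2%. Trps1, a zinc finger gene of hair growth, rose by 0.75 ± 0.14 (limma adjusted p = 0.0435) when NFIB-cKO and NFIB/X-dKO were set against WT and NFIX-cKO, a contrast added after seeing the values. It was the 1 gene of the 11 called there, where 2.48% of all genes were called in either direction. Hoxc13 itself differed from WT by 0.51 ± 0.19 in NFIB/X-dKO (limma adjusted p = 0.245), 0.20 ± 0.19 in NFIB-cKO (0.755) and -0.10 ± 0.19 in NFIX-cKO (0.985), on the log2(TPM + 1) scale. The first of these was 0.31 without WT 82 and 0.71 without WT 34, and 0.34 after median-of-ratios scaling. The 95% intervals of the 3 differences reached 0.96, 0.65 and 0.35 at the upper end and 0.06, -0.25 and -0.55 at the lower end.

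Over the 8 libraries the Hox profile kept its shape. The highest library was 1.81 times the lowest at the median over the 26 members, with a range from 1.35 for Hoxb6 to 3.96 for Hoxd3, and the same ratio was 1.83 over the 14711 fitted genes above 0 in all libraries. The ratio was under 2 for 15 of 26 members and for 57.5% of those genes, so Hox levels varied about as much as others. Pearson's r between 2 libraries over the 26 log2 levels ran from 0.971 to 0.995 in 28 pairs. These values are descriptive, since members of a cluster are not independent and all libraries share the same wide spread of levels.

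Each knockout group was then compared with WT, to ask whether the positional code holds when the NFI factors are lost. In NFIB/X-dKO against WT 0 of 26 members passed limma's test at an adjusted p under 0.05, against 2.88% of 15434 genes. In NFIB-cKO against WT 0 of 26 passed, against 0.719% of genes, and in NFIX-cKO against WT 0 of 26, against 0.149%. At an unadjusted p under 0.05 there were 8, 5 and 0 members, where all genes gave 16.8%, 12.6% and 6.81%. The test for any difference among the 4 groups called 0 of 26 members and 1.43% of genes. At an unadjusted p under 0.05 it gave 4 members and 15.8% of all genes, so the members were not set apart. Of these 4 members Hoxc8 had the lowest limma adjusted p (0.0727), then Hoxd8 (0.106), Hoxc6 (0.157) and Hoxb7 (0.222).

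The largest differences from WT were in NFIB/X-dKO. Hoxb7 was 1.03 ± 0.24 higher on the log2(TPM + 1) scale (limma adjusted p = 0.077) and Hoxd8 0.82 ± 0.18 (0.0652). In NFIB-cKO, Hoxc6 differed by 0.64 ± 0.14 (0.114) and Hoxc8 by 0.60 ± 0.12 (0.0874). The Hoxb7 difference in NFIB/X-dKO passed the test after scaling libraries by the median of ratios (0.85, limma adjusted p = 0.0422), within the 30s (0.89, 0.0319), and with either NFIX-cKO library left out (1.03, 0.0336). It missed the test under the other 12 of 16 alternatives, and the adjusted p ran from 0.0319 to 0.398.

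The directions leaned upwards in the groups with homozygous floxed Nfib and Cre. In NFIB/X-dKO 22 of 26 members were above WT with a median of 0.31, but 67.2% of all genes were above and their median was 0.16, and the members' median was 0.15 after median-of-ratios scaling. In NFIB-cKO 18 of 26 were above with a median of 0.23, against 50.9% and a median of 0 for all genes. In NFIX-cKO 7 of 26 were above and 19 below with a median of -0.10, against 41.7% above and -0.05 for all genes. That median was -0.21 without NFIX-cKO 32 and -0.03 without NFIX-cKO 88. By cluster, the medians of fitted members in NFIB-cKO were -0.06 for A, 0.32 for B, 0.52 for C and 0.14 for D, and in NFIB/X-dKO 0.20, 0.26, 0.48 and 0.45. The 3 contrasts share the WT libraries.

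Both knockout libraries lay above both WT libraries for 19 members in NFIB/X-dKO (38.4% of all genes), 13 in NFIB-cKO (21.7%) and 2 in NFIX-cKO (9.64%). They lay below for 1, 1 and 8 members, where all genes gave 17.1%, 16.6% and 16.2%. Hoxa9 and Hoxb9, paralogs of group 9, were the 2 members above WT in NFIX-cKO, and Hoxb4 and Hoxa7 were the single members below WT in NFIB/X-dKO and NFIB-cKO.

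The 95% intervals limit how large a difference could have been missed. They lay within 1 log2 unit of 0 for 20 of 26 members in NFIB/X-dKO against WT, 23 in NFIB-cKO and 23 in NFIX-cKO, where 63.7%, 69.2% and 74.6% of all genes met this. Over all members the outermost bounds were -0.95 and 1.59 in NFIB/X-dKO, -0.75 and 1.23 in NFIB-cKO and -1.22 and 0.89 in NFIX-cKO. A miss of the test therefore does not show that the levels were equal.

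**Figure D4:**
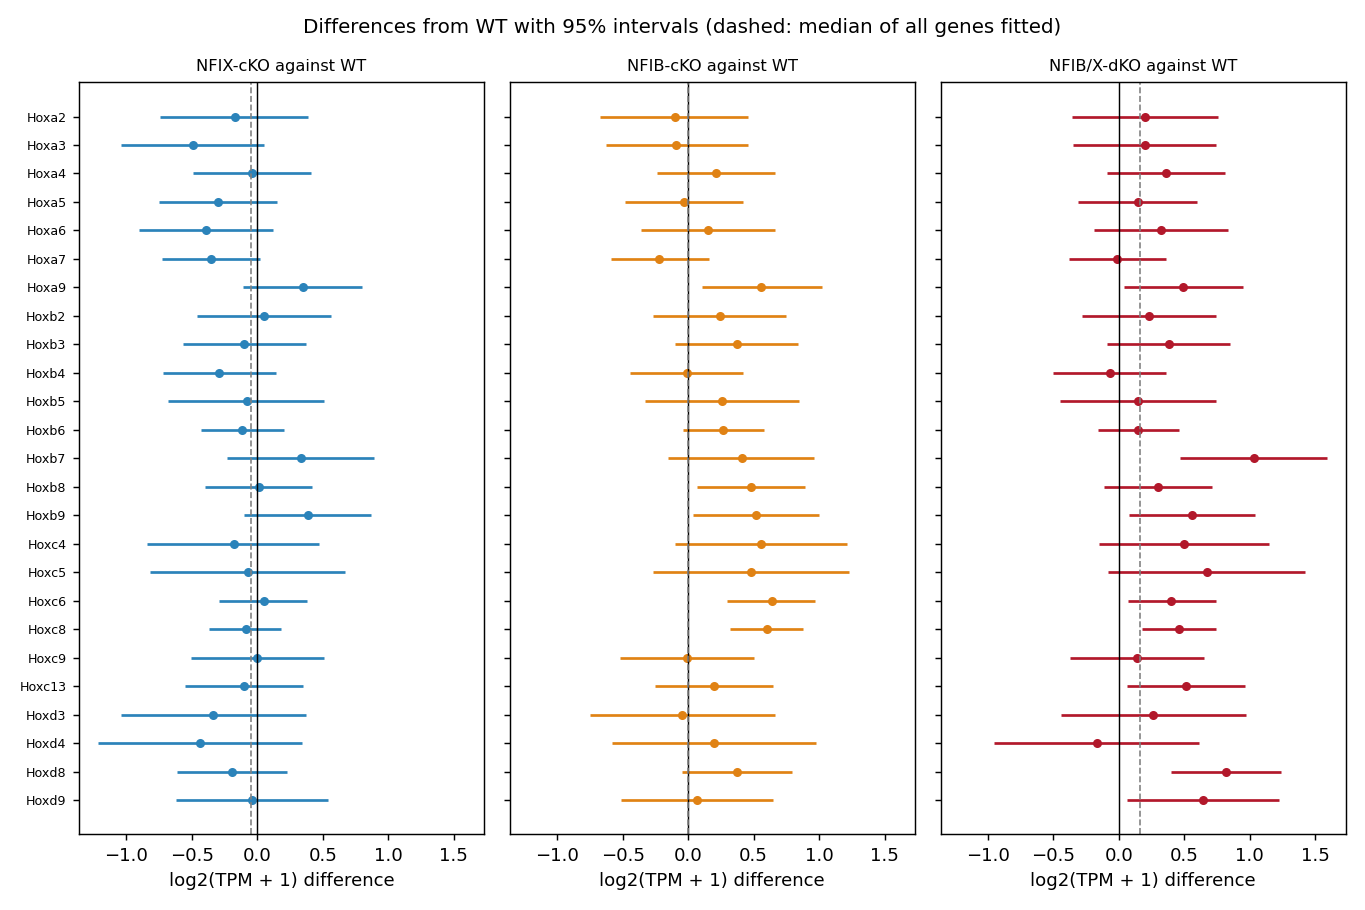
Difference from WT in log2(TPM + 1) (horizontal axes) for 25 of the 26 fitted Hox genes (vertical axis) in NFIX-cKO, NFIB-cKO and NFIB/X-dKO, as limma estimates with 95% intervals; the dashed line is the median of all genes fitted. Hoxb7 (1.03) and Hoxd8 (0.82) lie farthest to the right, in the NFIB/X-dKO panel, and the NFIX-cKO estimates run from -0.49 to 0.39.

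NFIB/X-dKO was also compared with each single knockout. Against NFIB-cKO 0 of 26 members passed (0.227% of genes), and 2 had an unadjusted p under 0.05. The lowest limma adjusted p was that of Hoxb7 at 0.277, with a difference of 0.62 ± 0.24. NFIB/X-dKO and NFIB-cKO lie in different number series, so genotype and series cannot be told apart in any comparison between them. The 7 interfollicular epidermis markers differed between these groups by a median of 1.39, with 5 at an unadjusted p under 0.05 and 0 past the test, and their part in the Hox values was not tested. Against NFIX-cKO 0 of 26 passed (0.784% of genes) although 10 had an unadjusted p under 0.05, where 14.5% of all genes did. All 26 estimates were above 0, from 0.14 to 1.01, where 73.7% of all genes were. Hoxd8 led at 1.01 ± 0.18 (limma adjusted p = 0.0632), followed by Hoxc8 at 0.56 ± 0.12 (0.108). The members' median was 0.39, against 0.19 for all genes, and 0.21 after median-of-ratios scaling. Both NFIB/X-dKO libraries lay above both NFIX-cKO libraries for 21 members (44.9% of genes) and below for 0 (11.5%), and above both NFIB-cKO libraries for 12 (49%) and below for 3, Hoxc6, Hoxc8 and Hoxd4 (23.1%). Hoxa3, Hoxa4, Hoxb7, Hoxc13, Hoxd8 and Hoxd9 were the 6 members higher in both NFIB/X-dKO libraries than in all 6 others (20.8% of genes), and 0 were lower (5.28%). NFIX-cKO 88 was the lowest of the 8 libraries for 15 of 26 members, which also held for 25.5% of all genes, and its size factor of 0.852 was the smallest of the 8.

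The non-additive contrast takes the NFIB/X-dKO difference from NFIB-cKO minus the NFIX-cKO difference from WT. It called 0 of 26 members (0.117% of genes), and 3 had an unadjusted p under 0.05, where 9.43% of all genes did. These members were Hoxa3 (0.78 ± 0.33), Hoxd8 (0.64 ± 0.25) and Hoxa7 (0.56 ± 0.22), each with a limma adjusted p of 0.519. The number series enters this contrast too, since NFIB/X-dKO and NFIB-cKO lie in different series. Intervals lay within 1 log2 unit of 0 for 22 members against NFIB-cKO (61.4% of genes), 16 against NFIX-cKO (64.9%) and 10 in the non-additive contrast (42%), which has the widest errors.

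The expected counts allowed a second test of NFIB/X-dKO against NFIX-cKO. edgeR's quasi-likelihood test called 0 of 27 members and 0.322% of 18349 genes, with a member median of 0.22 against 0 for all genes and 24 of 27 estimates above 0. At an unadjusted p under 0.05 edgeR gave 5 members, and DESeq2 also called 0. Hoxd8 differed by 0.81 ± 0.22 (edgeR adjusted p = 0.269), from 33.3 and 46.9 CPM (counts scaled to library size) in NFIX-cKO to 61.8 and 79 in NFIB/X-dKO. Hoxc13 differed by 0.42 ± 0.13 (0.29), from 14.3 and 16.2 to 20.9 and 19.9 CPM. Without NFIX-cKO 32 the same test called 10 of 28 members, where 36.4% of genes were called, and without NFIX-cKO 88 it called 6 of 28, where 9.11% of genes were. Without either NFIB/X-dKO library it called 0 members and 0 genes, and in each of these fits the lone library was assumed to vary like the other group.

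After the values had been seen, a contrast of the NFIB-cKO and NFIB/X-dKO groups against the WT and NFIX-cKO groups was fitted, and its p-values are no independent evidence of the pattern that prompted it. In this contrast 2 of 26 members rose, against 2.48% of all genes called in either direction. Hoxc8 was 0.58 ± 0.08 higher (limma adjusted p = 0.0199) and Hoxd8 0.69 ± 0.13 (0.0405), with 4 of 4 libraries above 4 of 4 for each. Hoxc6 missed at 0.50 ± 0.10 (0.0555), Hoxb7 had 0.55 ± 0.17 (0.17) and Hoxc13 0.40 ± 0.14 (0.208). All 26 estimates were above 0, from 0.06 to 0.69, with a median of 0.33, while 69.7% of all genes were above 0 with a median of 0.10. The interval lay within 1 log2 unit of 0 for 24 members, as for 85.6% of genes.

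Hoxa4, Hoxb3, Hoxb6, Hoxb8, Hoxc4, Hoxc6, Hoxc8 and Hoxd8 had all 4 libraries of these 2 groups above all 4 of the others, 8 members where 6.84% of all genes did so, and 0 members had them below (2.11%). Cluster C held 3 of them, and its summed TPM was 98.8 ± 4.57 in WT, 95.4 ± 7.76 in NFIX-cKO, 148 ± 8.0 in NFIB-cKO and 138 ± 8.29 in NFIB/X-dKO. Both calls ended after median-of-ratios scaling, at 0.47 for Hoxc8 (limma adjusted p = 0.104) and 0.58 for Hoxd8 (0.16). The Hoxd8 call ended without any 1 of the 8 libraries (adjusted p from 0.0809 to 0.204), and the Hoxc8 call without NFIB-cKO 81 or 85, NFIX-cKO 88, or NFIB/X-dKO 33 or 36 (0.0586 to 0.164).

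The sum of the fibroblast list was higher in the same 4 libraries, and that of the cell cycle list did not separate them. The fibroblast and dermal papilla markers summed to 130 to 216 TPM in NFIB-cKO and 130 to 147 in NFIB/X-dKO, against 70.3 to 94.4 in WT and 71.3 to 98.9 in NFIX-cKO. Of its 15 genes 5 met the filter, Col1a1 rose by 2.22 ± 0.21 in the same contrast (limma adjusted p = 0.00497) and Crabp1 fell by 2.02 ± 0.20 (0.00562). Thy1 had 1.76 ± 0.37 (limma adjusted p = 0.0631) and Col1a2 -1.61 ± 0.41 (0.108). The 10 genes of the list that were under 1 TPM in every library include Col3a1, Dcn, Lum, Pdgfra, Pdgfrb and Dpt. Cell cycle genes summed to 369 to 408 TPM in WT, 419 to 496 in NFIX-cKO, 496 to 766 in NFIB-cKO and 437 to 486 in NFIB/X-dKO. NFIX-cKO and NFIB/X-dKO thus overlapped. The part of either list in the Hox differences was not tested.

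**Figure D5:**
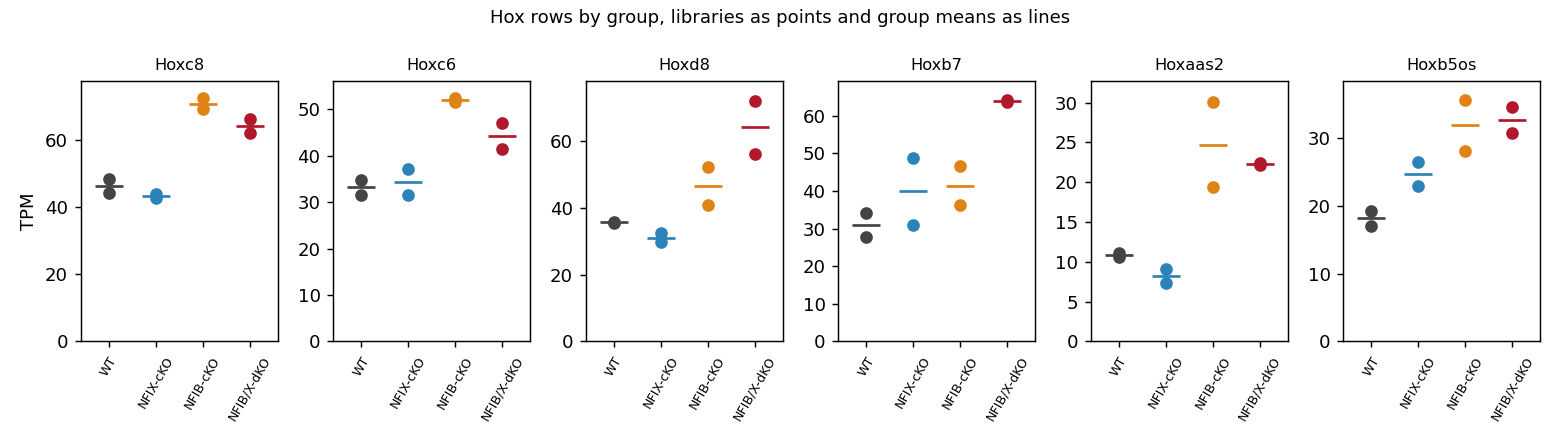
TPM (vertical axes, from 0) of 4 Hox genes and of the non-coding rows Hoxaas2 and Hoxb5os by group, with libraries as points and group means as lines. In Hoxc8, Hoxc6, Hoxd8, Hoxaas2 and Hoxb5os the lowest NFIB-cKO or NFIB/X-dKO library lies above the highest WT or NFIX-cKO library (for Hoxaas2, 19.44 against 11.12 TPM), and in Hoxb7 it does not.

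The number series was fitted beside genotype. Its term rests on WT and NFIX-cKO, which hold 1 library of each series, since NFIB-cKO and NFIB/X-dKO each lie within a single series. In the 80s against the 30s 1 of 26 members was called, against 15.8% of all genes. Hoxa5 fell by 0.39 ± 0.09 (limma adjusted p = 0.0439), and the call rested on the libraries used, as 0 to 2 members were called with 1 library left out. Hoxa2 had -0.46 ± 0.12 (0.0546) and Hoxb7 -0.46 ± 0.15 (0.0761), while Hoxd4 had 0.71 ± 0.19 (0.0523) and Hoxd3 0.55 ± 0.19 (0.0885). By cluster the median was -0.30 for A, -0.16 for B, -0.09 for C and 0.35 for D, and the all-gene median was -0.22. With the series as a covariate, Hoxc8 passed the test among the 4 groups (limma adjusted p = 0.0331, the lowest of 14 alternatives that reached 0.364), and 4 of 26 members passed the contrast added after seeing the values, in a fit that called 7.87% of genes where 2.48% were called without the covariate. Epidermal markers moved with the series too, as Krt1, Krt10, Lor and Ivl, 4 of 7, fell in the 80s by limma and 0 rose.

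Non-coding RNAs of the clusters were measured beside the members. Hoxaas2, an antisense RNA in cluster A, measured 10.55 and 11.12 TPM in WT, 30.02 and 19.44 in NFIB-cKO, 9.06 and 7.31 in NFIX-cKO and 22.21 and 22.46 in NFIB/X-dKO. It passed the test among the 4 groups (limma adjusted p = 0.0476) and was 1.22 ± 0.16 higher in the added contrast (0.0132). The first call held under 2 of 14 alternatives (adjusted p from 0.0396 to 0.236). It ended with any 1 library left out, a pseudocount of 0.1, no filter, median-of-ratios scaling or no variance trend, and the second without NFIB/X-dKO 33 (0.0749) or 36 (0.0834). Against NFIX-cKO, NFIB/X-dKO was 1.21 ± 0.11 higher by edgeR (adjusted p = 0.0584). Its exons share 503 bases with those of Hoxa3 on the opposite strand, and Hoxa3 had 0.30 ± 0.16 in the added contrast (limma adjusted p = 0.444).

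Hoxb5os, opposite Hoxb5, measured 17.1 and 19.32 TPM in WT, 35.72 and 28.11 in NFIB-cKO, 26.45 and 23.03 in NFIX-cKO and 30.85 and 34.64 in NFIB/X-dKO, and it did not pass in the added contrast (0.58, limma adjusted p = 0.06). Hotairm1 at the head end of cluster A ran from 14.97 to 31.85 TPM, Hoxd3os1 from 18.02 to 36.16, Hoxb3os from 6.38 to 13.26 and Hoxaas3 from 3.36 to 9.0. Hotair and Hottip, RNAs of the tail ends of clusters C and A, were at 0 in all libraries, where Hoxa13 and Hoxa11 were at 0 too. The short row Mir196a-1 ran from 14.28 to 36.93 TPM on 32 to 76 counts, and Mir10a and Mir10b rested on at most 4 counts.

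The regulators and partners of Hox proteins gave few calls. Of 8 expressed TALE homeodomain cofactors, the Pbx, Meis and Pknox genes, 0 passed in any contrast by limma. At an unadjusted p under 0.05 there were 1 to 4 in the genotype contrasts, where all genes gave 6.81% to 17.2%. Against WT the lowest limma adjusted p was that of Pbx4 in NFIB-cKO (1.03 ± 0.20, 0.0895). Pknox2 had a difference of -1.09 ± 0.29 in NFIX-cKO against WT (0.461). Of 12 expressed Trithorax-group and other activators 0 passed between genotypes, with 0 to 2 at an unadjusted p under 0.05, and the caudal genes Cdx1, Cdx2 and Cdx4 were under 1 TPM in every library. Of 25 Polycomb genes, whose complexes keep Hox clusters silent, 0 passed between genotypes, with 1 to 8 at an unadjusted p under 0.05. The contrast added after seeing the values called 1, Phc1 at 0.97 ± 0.16 (limma adjusted p = 0.0336), where 2.48% of all genes were called in either direction. Phc1 measured 0.77 and 1.14 TPM in WT, 2.01 and 3.02 in NFIB-cKO, 0.9 and 0.87 in NFIX-cKO and 3.04 and 3.03 in NFIB/X-dKO.

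In the retinoid list, a pathway that switches on Hox genes in the embryo, 1 of 12 expressed genes fell in NFIB/X-dKO and NFIB-cKO against WT and 0 rose. Of all genes, 2.88% and 0.719% were called in these contrasts, in either direction. The gene that fell was Crabp1, a retinoic acid binding protein, with -3.04 ± 0.29 (limma adjusted p = 0.00477) and -2.24 ± 0.29 (0.0254). Its level was 23.54 and 24.31 TPM in WT and 1.39 to 4.35 in these 2 groups. NFIX-cKO lay between, at 7.56 and 11.9 TPM, and missed the test against WT (-1.25 ± 0.29, limma adjusted p = 0.346). Of 8 other expressed homeobox and T-box genes of position 0 passed between genotypes, with 0 to 4 at an unadjusted p under 0.05. Tbx1, a regulator of bulge stem cells, was at 154 to 358 TPM and Barx2 at 82.36 to 223.75, while the limb genes Tbx4, Tbx5 and Pitx1 and the dermal genes Tbx15, Tbx18, En1 and Prrx1 were under 1 TPM in every library. Of 10 expressed neighbours outside the clusters 0 passed between genotypes, with 0 to 2 at an unadjusted p under 0.05. In the same contrasts 6.81% to 17.2% of all genes reached that level.

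Cell type lists gave the setting of these levels. Of 16 bulge markers 4 fell in NFIB/X-dKO against WT and 0 rose, where 2.88% of all genes were called in either direction. They were Krt24 (-3.82 ± 0.22, limma adjusted p = 0.00102), Lhx2 (-1.42 ± 0.15, 0.00612), Lgr5 (-1.57 ± 0.20, 0.0128) and Foxc1 (-0.90 ± 0.16, 0.0317). The list was chosen with earlier results known, so it is no neutral comparison for the Hox genes. Of 9 expressed hair matrix and germ genes, Foxi3 fell by 1.16 ± 0.20 in that contrast (0.0312), and of 20 cell cycle genes 2 rose, Uhrf1 (1.0 ± 0.16, 0.0277) and Gins2 (0.93 ± 0.15, 0.0248). In the added contrast Krt24, Lhx2, Lgr5 and Foxi3 fell and Uhrf1 rose, and 0 others of these 3 lists passed, where 2.48% of all genes were called. Of the expressed melanocyte (7), endothelial (1), immune (4), muscle and mural (1), Schwann (3) and interfollicular epidermis (7) markers, 0 passed between genotypes. The melanocyte markers summed to 65.5 to 114 TPM, the immune markers to 33.4 to 62.8 and the Schwann and nerve markers to 6.99 to 10.1, with Sox10 and Ptprc under 1 TPM in every library.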

How the data were processed

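RNA sequencing of sorted hair follicle stem cells was analysed for 8 libraries. The authors deposited a table of TPM for all 8, and gene tables with expected counts, TPM and FPKM for 5 of them. RSEM 1.2.30, Bowtie2 2.2.9 and the build mm10 (GRCm38) are named in the submitters' processing notes. Deposited lengths and FPKM were not used in a test. The annotation release, read filters and strand setting are not given in the sources used here. Apart from punctuation and a shared ending, each column of the table carries 1 library's title. Depth of WT 34, WT 82 and NFIB-cKO 81 is unknown, since TPM keeps no depth. Expected counts were whole in all 5 libraries, within 0.005, for 17 of 39 members, and shared reads were divided between rows for the others. The 17 include silent members such as Hoxa11 and Hoxa13, and the others include Hoxa7 and Hoxc8.

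Differences were tested with limma 3.58.1 under R 4.3.3. It was fitted to log2 TPM after adding a pseudocount of 1, for the 15434 genes that reached 1 TPM in 2 or more libraries. It used a variance trend and Benjamini-Hochberg adjustment over all genes at 0.05, with all 8 libraries in 1 fit (4 residual and 3.1 prior degrees of freedom). Differences on this scale understate those of low genes. edgeR 4.0.16 was run on rounded expected counts for NFIB/X-dKO against NFIX-cKO (18349 genes), with DESeq2 1.42.0 as an alternative. The steps were tested on simulated data. Alternatives covered the pseudocount, filter, scaling, trend, number series, smaller fits and each library left out. Fitted members are named with their range, except 1 that is not reported here, and values per library are given for the 8 with the highest mean, Hoxc13, and members past a test or with an unadjusted p under 0.05 among the 4 groups. Of the other lists, calls are counted and up to 4 genes with the smallest p are named. Gene models were GENCODE M21 on GRCm38. The members and lists were chosen with earlier results of these data known.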

Additional observations from a re-analysis of the deposited data

How the results depend on the processing

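The absence of Hox calls between genotypes held under the alternatives run, apart from these. Hoxb7 was the 1 member called in NFIB/X-dKO against WT with median-of-ratios scaling and within the 30s, and leaving out a library gave 0 to 1. NFIB/X-dKO against NFIB-cKO gave 1 with only the 2 groups, in a fit that called 3086 genes against 35. The test among the 4 groups gave 1 with the number series as a covariate. Leaving out a library gave 0 to 10 calls with edgeR, where DESeq2 called 825 genes and edgeR 59. For the added contrast of the 2 groups with homozygous floxed Nfib and Cre, the members called were 1 with no filter, 0 with scaling, 1 with no trend, 4 with the series as a covariate, and 0 to 1 with a library left out. All genes called in it were 382, and under these alternatives 210, 321, 392, 1214, and 63 to 372. For the series they were 0 with no filter, 3 at a TPM of at least 5, 0 with scaling, 0 with no trend, and 0 to 2 with a library left out.

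Intervals within 1 log2 unit of 0 numbered 27 of 37 against NFIX-cKO and 21 of 37 in the non-additive contrast with no filter, and 16 of 26 in the latter with the series covariate. With a library left out they ranged from 8 to 20 in NFIB/X-dKO against WT, 15 to 23 in NFIB-cKO against WT, 7 to 19 against NFIX-cKO, 3 to 14 in the non-additive contrast and 15 to 25 for the series. Hoxc13 in NFIB-cKO against WT ranged from 0 to 0.40 with a library left out, and its sign turned, at 0 after rounding, without WT 82. The Hox sum after scaling was 508.3 TPM in WT, 622.4 in NFIB-cKO and 576.3 in NFIB/X-dKO, so scaling turned the order of the last 2. Genes called over the alternatives other than leaving out a library ranged from 270 to 728 in NFIB/X-dKO against WT, 2 to 200 in NFIB-cKO, 12 to 44 in NFIX-cKO, 39 to 169 in NFIB/X-dKO against NFIX-cKO, 132 to 446 among the 4 groups and 29 to 2722 for the series. The cause was not tested. The alternative within 1 series leaves a lone WT library, assumed to vary like the other groups. No paired analysis was possible because the groups share no replicate numbers. The number series was fitted as a covariate, with the values above.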
